A study of Mus musculus with 4 samples.

Results

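The myelin genes described here are 7 of the 24637 genes in the deposited table: *Mobp*, *Mbp*, *Mog*, *Mag*, *Cnp*, *Pmp22* and *Gpm6b*. *Mobp* was selected on its normalized read count, which was much higher in Taf4a-/- cells than in their WT counterparts, and the other 6 were taken by name as genes of myelin proteins, to see whether they shared that rise. The libraries came from mouse embryonic stem cell (ESC) lines made from E3.5 blastocysts of Taf4a+/- crosses of C57Bl6J mice, and each genotype, WT (Taf4+/+ in the genotype label) or Taf4a-/- (Taf4-/-), had 2 libraries of cells labelled as cardiac, numbered as replicates 1 and 2. The Taf4a-/- lines lack exons 11 and 12 of *Taf4a*, which encodes a subunit of the general transcription factor TFIID. Both genotypes went through the same cardiac differentiation, in which the cells grew as embryoid bodies in medium with 20% FCS for 5 days and on gelatin-coated plates for 9 more, and polyadenylated RNA was sequenced without keeping the strand.

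Myelin is the stack of membrane that oligodendrocytes wind around axons in the central nervous system and Schwann cells in peripheral nerve. *Mbp* encodes the basic protein that holds the cytoplasmic faces of the stack together, and *Mobp* encodes a smaller basic protein of the same compact layers in the central nervous system. *Mog* and *Mag* encode immunoglobulin-type surface proteins of the outermost and innermost layers, *Cnp* an enzyme of the cytoplasm-filled channels, *Pmp22* a tetraspan protein of peripheral compact myelin that many other cells make, and *Gpm6b* a membrane glycoprotein of neurons and glia. Oligodendrocytes switch most of these genes on late in their differentiation, under *Olig2*, *Sox10* and *Myrf*.

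The promoter windows of the members at the ends of the range of change, with that of *Mog*, are shown to set their sequence beside the changes described further on. RefSeq start sites of GRCm38.p6 gave 11 windows of 300 bases, from 250 before to 50 after the start, for 6 of the 7 genes. Each window below also matched the authors' build exactly 1 time. Capitals mark ACAAAG or its reverse complement CTTTGT, a core shared by sites of SOX and TCF/LEF factors. *Mobp* lies on the plus strand at chr9:120149492-120149791, *Mog* on the minus strand at chr17:37023349-37023648 and *Gpm6b* on the plus strand at chrX:166238693-166238992.
Mobp: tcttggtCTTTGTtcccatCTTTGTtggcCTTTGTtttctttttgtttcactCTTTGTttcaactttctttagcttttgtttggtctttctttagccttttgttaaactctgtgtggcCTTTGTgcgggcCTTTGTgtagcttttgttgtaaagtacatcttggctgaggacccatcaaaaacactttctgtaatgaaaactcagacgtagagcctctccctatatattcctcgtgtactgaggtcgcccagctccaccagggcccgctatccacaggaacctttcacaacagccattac
Mog: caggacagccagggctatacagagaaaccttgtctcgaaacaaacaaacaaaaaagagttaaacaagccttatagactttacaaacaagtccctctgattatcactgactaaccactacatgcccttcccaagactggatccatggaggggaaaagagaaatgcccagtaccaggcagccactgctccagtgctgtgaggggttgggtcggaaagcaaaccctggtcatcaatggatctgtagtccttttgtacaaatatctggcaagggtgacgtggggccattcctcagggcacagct
Gpm6b: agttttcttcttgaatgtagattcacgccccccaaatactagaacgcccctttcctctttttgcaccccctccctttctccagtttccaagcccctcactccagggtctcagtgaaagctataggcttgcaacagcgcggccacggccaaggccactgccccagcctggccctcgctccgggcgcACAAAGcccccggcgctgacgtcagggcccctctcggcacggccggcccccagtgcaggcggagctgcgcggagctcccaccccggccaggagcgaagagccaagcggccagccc
The *Mobp* window held 6 matches, all as CTTTGT, at 243, 231, 221, 198, 132 and 120 bases before the start. Over all 32851 RefSeq windows of this length, 18.7% held at least 1 match on either strand and 1 window, that of *Mobp*, held 6 or more. *Mog* held none and *Gpm6b* 1, at 65 bases before the start. *Cnp* held 1 match, *Mag* had 1 in each of 2 of its 3 windows, and the 4 *Pmp22* windows held none. The letters TATAAA and CAGCTG were in none of the members' windows, against 13.6% and 16.3% of all windows. These are matches of letters in a fixed window. Binding was not measured.

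The depth was 21732746 to 27733034 reads per library, and 1 read was worth 0.877 to 1.11 normalized counts. The count of *Taf4a* over the whole gene was 889 and 678 in WT against 1722 and 1799 in Taf4a-/- (log2 fold change 1.18, SE 0.16, adjusted p-value 0.00569 with limma). It is not lower in Taf4a-/- and does not check a deletion of 2 exons, so the groups are called by their labels. Markers of other cells also moved, and 4 of 4 were called in each of these lists, where 11.3% of all genes tested were called higher and 17.3% lower. Summed counts of 4 cardiomyocyte markers were 17738 and 19834 in WT and 1181 and 1431 in Taf4a-/-, those of 4 macrophage markers were 6065 and 7336 against 36.2 and 58.6, and those of 4 pluripotent cell markers were 2028 and 796 against 7905 and 9390. Their part in the changes below was not tested, and in bulk RNA fewer cells of a type and less RNA per cell cannot be told apart.

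The rise of *Mobp* was not shared by the myelin genes as a group. *Mog* was also higher in Taf4a-/-, at no more than 23 reads per library, while *Mbp* was 2.18-fold and *Gpm6b* 4.08-fold lower, *Cnp* and *Pmp22* did not pass the test, and *Mag* was close to 0 in all 4 libraries. Of the 7 genes, 5 averaged 10 or more normalized counts and were tested, and *Mog* and *Mag* did not reach this. At an adjusted p-value under 0.05 (limma, adjusted over the 16926 genes tested), 2 of the 5 were lower, against 17.3% of all genes tested, and 1 was higher, *Mobp* itself, against 11.3%. *Mobp* passed the filter only through its Taf4a-/- libraries and was chosen for its rise, so its place among the calls is a description.

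**Figure D1:**
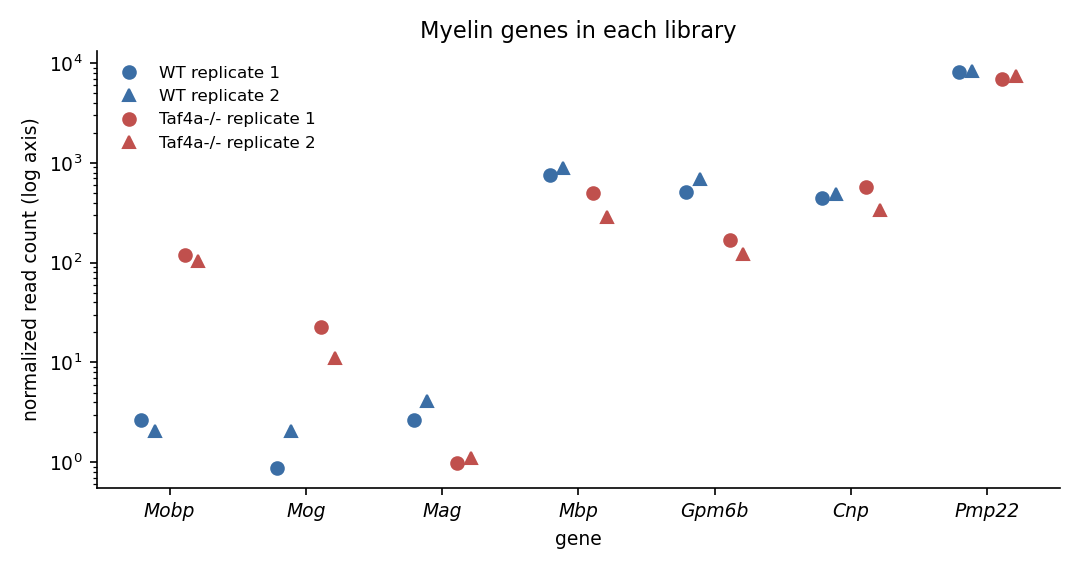
Normalized read count (log axis) of each myelin gene in each of the 4 libraries, WT in blue and Taf4a-/- in red, circles for replicate 1 and triangles for replicate 2. *Mobp* and *Mog* sit higher in both Taf4a-/- libraries, *Mbp*, *Gpm6b*, *Pmp22* and *Mag* lower in both, and for *Cnp* the Taf4a-/- points at 579 and 335 lie on either side of the WT points.

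Both Taf4a-/- libraries lay above both WT libraries for 2 members, below them for 4, and overlapped for 1, *Cnp*. Over all 24637 genes, 30.0% were above and 29.6% below in this sense. Among the 5 tested members 1 was above and 3 were below, against 34.5% and 36.6% of the 16926 genes tested. A sum over the 7 members would hide this, since *Pmp22* alone holds most of the reads. Per kb of annotated exon, *Pmp22* had 2953 to 3567 normalized counts in the 4 libraries, *Cnp* 92.1 to 159, *Mbp* 34.1 to 107, *Gpm6b* 21.7 to 123, *Mobp* 0.320 to 18.2, *Mog* 0.515 to 13.2 and *Mag* 0.403 to 1.71.

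On this scale per length the order of the members differed between the genotypes. In WT, *Pmp22* stood first, *Cnp* (122 and 135) and *Mbp* (90.9 and 107) followed, *Gpm6b* (90.3 and 123) overlapped with both, and *Mag*, *Mog* and *Mobp* were all below 2, in that order in both libraries, from 1 to 4 reads each. In Taf4a-/- the ranges of neighbours did not overlap and the order was *Pmp22*, *Cnp*, *Mbp*, *Gpm6b*, *Mobp*, *Mog* and *Mag*. Even after its rise *Mobp*, at 18.2 and 15.8, was below *Gpm6b*, which had fallen to 30.4 and 21.7.

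*Mobp* (ENSMUSG00000032517, NCBIM37 chr9:120058860-120090602, plus strand, 5 annotated transcripts) had normalized counts of 2.63 and 2.08 in WT and 118 and 103 in Taf4a-/-, from 3, 2, 121 and 93 reads. The Taf4a-/- libraries were far above the WT libraries and close to each other. The means were 2.35 ± 0.390 in WT and 110.7 ± 11.0 in Taf4a-/- (SD, n = 2). The ratio of the summed reads, scaled by the size factors, was 46.7, from 5 reads in WT and 214 in Taf4a-/-. *Mobp* was chosen for its rise in these same libraries, so this ratio and the fitted values below describe that rise and do not test it. The fitted log2 fold change was 5.06 (SE 0.42) on the log2(normalized count + 1) scale, number 3 from the top among the genes tested. Over the alternative settings it ran from 3.29, with a pseudocount of 10, to 5.30. No exon of another annotated gene overlaps its exons.

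Upstream on the same strand the gene with the nearest end is *Rpsa*, a ribosomal protein gene 17372 nt away, which had 243 and 209 normalized counts in WT and 155 and 164 in Taf4a-/- and did not pass the test (log2 fold change -0.50, SE 0.21, adjusted p-value 0.123, limma). Within its span lie the small nucleolar RNA genes *Snora62*, with 2.63, 2.08, 1.96 and 4.42 normalized counts in WT 1, WT 2, Taf4a-/- 1 and Taf4a-/- 2, and *SNORA73*, with 1.75, 3.12, 5.87 and 2.21. Poly-A libraries measure such short RNAs poorly. Downstream, 1079 nt from the end of *Mobp*, the non-coding *RP24-87K15.3* was 0 in 3 libraries and 4.42 in Taf4a-/- replicate 2. *Myrip*, which encodes a linker of myosin and Rab27 on secretory vesicles, starts 122451 nt downstream and had 9.64 and 6.23 in WT and 5.87 and 5.53 in Taf4a-/-. These 4 were under the filter and were not tested. Further upstream, *Cx3cr1*, a chemokine receptor gene of macrophages 81459 nt from *Mobp*, fell from 1462 and 2067 to 0 and 7.74 (adjusted p-value 0.00269, limma). Between *Cx3cr1* and *Rpsa*, on the same strand as *Mobp* and 25237 nt from it, *Slc25a38* was higher in Taf4a-/-. It had 422 and 325 in WT and 567 and 514 in Taf4a-/-, and did not pass the test (log2 fold change 0.54, SE 0.19, adjusted p-value 0.0760, limma). *Rpsa*, *Slc25a38* and *Cx3cr1* were named after their values were seen.

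**Figure D2:**
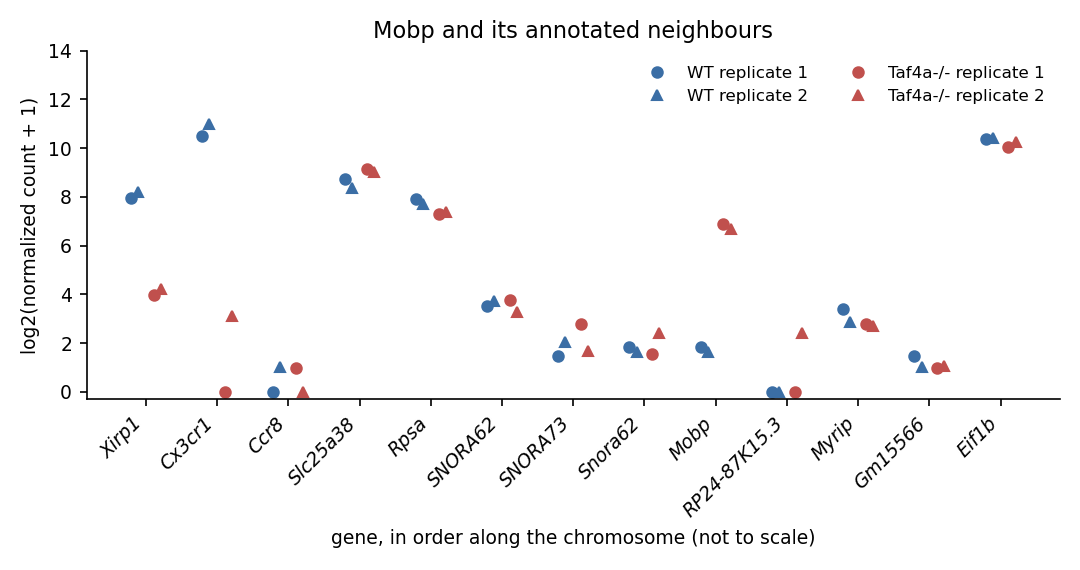
Level, as log2(normalized count + 1), of *Mobp* and of annotated genes on either side in their order along the chromosome (not to scale), 4 libraries each, WT in blue and Taf4a-/- in red. *Mobp* rises from 2.63 and 2.08 to 118 and 103 normalized counts. *Rpsa* is at 155 to 243 in the 4 libraries, the snoRNA genes and *Myrip* are low in each, and *Xirp1* and *Cx3cr1* are lower in Taf4a-/-. *Slc25a38* is higher in both Taf4a-/- libraries but did not pass the test.

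The 5 tested genes whose pattern over the 4 libraries was most like that of *Mobp*, by Euclidean distance of log2(normalized count + 1), were *Zfp936* (distance 1.13), *Rpl10l* (1.34), *Gm13145* (1.40), *Gm14058* (1.59) and *Gm6792* (1.62). Their fitted log2 fold changes ran from 3.69 to 4.61, beside 5.06 for *Mobp*, and such rises follow from the way they were picked. None of them is in the lists of myelin or glial genes. The other myelin and glial genes were only 74 of the 16926 genes tested, so this absence says nothing about the pattern. *Zfp936* encodes a zinc finger protein and *Rpl10l* a copy of the ribosomal protein gene *Rpl10*, and reads shared with near copies make such counts uncertain.

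*Mog* (ENSMUSG00000076439, NCBIM37 chr17:37147691-37160343, minus strand) had normalized counts of 0.877 and 2.08 in WT and 22.5 and 11.1 in Taf4a-/-, from 1, 2, 23 and 10 reads. Both Taf4a-/- libraries were higher than both WT libraries, and they differed from each other by -0.96 on the log2 scale, replicate 2 minus replicate 1. The ratio of Taf4a-/- over WT was 12.0, with an exact 95% interval of 3.77 to 61.2 for counting error only. Its mean of 9.13 kept it out of the test. In a fit of all 24637 genes without the filter its log2 fold change was 2.81 (SE 0.64, adjusted p-value 0.0278, limma), where 6.99% of genes were called higher and 11.5% lower. With WT replicate 1 or WT replicate 2 left out, it passed the filter but not the test, at adjusted p-values of 0.0572 and 0.0571.

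*Mag*, the receptor-like protein of the layer facing the axon, had 2.63 and 4.16 normalized counts in WT and 0.979 and 1.11 in Taf4a-/-, from 3, 4, 1 and 1 reads. The WT libraries were the higher ones, but the ratio of Taf4a-/- over WT, 0.312, had an exact 95% interval of 0.0316 to 1.64, so a difference was not detectable at this depth. Without the filter its log2 fold change was -1.08 (SE 0.59, adjusted p-value 0.251, limma).

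*Mbp* (ENSMUSG00000041607, on chromosome 18) had normalized counts of 764 and 896 in WT and 499 and 286 in Taf4a-/-. Both Taf4a-/- libraries were lower, and they lay further apart than the WT libraries. The means were 829.6 ± 93.4 and 393 ± 150.5 (SD, n = 2), and the fitted log2 fold change was -1.13 (SE 0.27, adjusted p-value 0.0296, limma). The call was lost without WT replicate 1 (-1.24, adjusted p-value 0.0780), WT replicate 2 (-1.01, 0.144) or Taf4a-/- replicate 2 (-0.73, 0.0799), and kept without Taf4a-/- replicate 1 (-1.53, 0.00346). The annotation gives the gene 16 transcripts. They include the longer golli forms, which cells outside myelin make, and a count for the gene does not separate them from the classic myelin forms.

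*Gpm6b* (ENSMUSG00000031342, on the X chromosome, 13 annotated transcripts), was called in the same direction throughout. Its normalized counts were 506 and 689 in WT and 170 and 122 in Taf4a-/-. Neither Taf4a-/- library came near the WT libraries. The means were 597 ± 129 and 146 ± 34.4 (SD, n = 2), with a log2 fold change of -2.03 (SE 0.25, adjusted p-value 0.00421, limma), and over the 13 alternative settings, each of which called it, this ran from -2.27 to -1.79. The X-linked *Xist*, which coats an inactive X chromosome, was at 6.14 and 7.27 in WT and at 217 and 6469.97 in Taf4a-/-. Its part in the fall of *Gpm6b* was not tested. The 746 X-linked genes tested had a median log2 fold change of -0.01, with 82 called higher and 106 lower. Over all genes tested, 11.3% were called higher and 17.3% lower. Among the X-linked genes *Gpm6b* was number 42 from the lowest.

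*Cnp*, the gene of the myelin phosphodiesterase, had 443 and 490 normalized counts in WT and 579 and 335 in Taf4a-/-. The 2 Taf4a-/- libraries fell on opposite sides of WT. The log2 fold change was -0.08 (SE 0.27, adjusted p-value 0.843, limma), and its sign turned in 2 alternatives, to 0.08 with quantile normalization, which moved the median of all genes to 0.11, and to 0.31 without Taf4a-/- replicate 2. Over 154 nt its exons overlap *Dnajc7* on the other strand, a chaperone gene that rose (log2 fold change 0.82, SE 0.16, adjusted p-value 0.0164, limma), and without strand the reads there cannot be told apart.

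*Pmp22* had 8150 and 8397 normalized counts in WT and 6950 and 7403 in Taf4a-/-. The Taf4a-/- values were slightly lower without overlap, but the log2 fold change of -0.21 (SE 0.12, adjusted p-value 0.224, limma) passed the test in none of the 13 alternatives. Between the 2 Taf4a-/- libraries, the log2 difference, replicate 2 minus replicate 1, was -0.80 for *Mbp*, -0.79 for *Cnp*, -0.48 for *Gpm6b* and -0.20 for *Mobp*, and 0.09 for *Pmp22*.

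**Figure D3:**
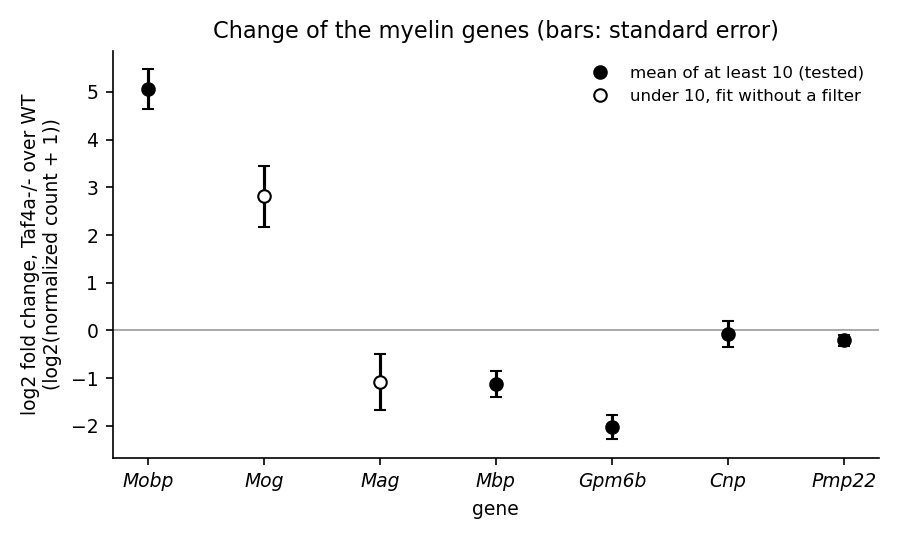
Fitted log2 fold change of each myelin gene, Taf4a-/- over WT, on the log2(normalized count + 1) scale, with bars for the standard error. Filled points had a mean of at least 10 and were tested, open points were below it and come from the fit without a filter. *Mobp* stands at 5.06 and *Mog* at 2.81, *Mag*, *Mbp* and *Gpm6b* are below 0 at -1.08, -1.13 and -2.03, and *Cnp* and *Pmp22* are near 0.

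The other genes listed by role, called the other myelin or glial genes below, fell more often than they rose. They also take in the relatives of *Pmp22* and the axonal and nodal partners of myelin, which gave 3 and 7 of the falls. Of 97 genes listed by role, 94 were in the table and 74 were tested. Among these 30 fell, or 40.5% against 17.3% of all genes tested, and 1 rose, *Olig2*, or 1.35% against 11.3%, with a median log2 fold change of -0.69 beside -0.01 for all genes tested. For all 94, both Taf4a-/- libraries were above WT for 12, below for 56, and overlapped for 26, where 30.0% of all genes were above and 29.6% below.

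The transcription factors of myelinating glia held the exception. *Olig2*, a factor that specifies oligodendrocyte and motor neuron precursors, had 43.8 and 11.4 normalized counts in WT and 106 and 122 in Taf4a-/-. The Taf4a-/- libraries were higher and close together, and the WT libraries were far apart. The log2 fold change was 2.28 (SE 0.61, adjusted p-value 0.0381, limma), and it was kept without WT replicate 1 (3.20, 0.0143) but lost without WT replicate 2 (1.35, 0.0603), Taf4a-/- replicate 1 (2.38, 0.0514) or Taf4a-/- replicate 2 (2.18, 0.0636). *Olig1*, its neighbour and relative, had 115 and 18.7 against 280 and 197. It missed the threshold at 2.30 (SE 0.78, adjusted p-value 0.0719, limma). Other settings moved this p-value both ways. It rose to 0.158 with no variance trend, and fell to 0.0450 with quantile normalization and 0.0240 with the replicate number as a block. The labels do not pair libraries across genotypes, so that block has no basis in the design. The log2 fold change of *Olig1* depended on the WT library kept, at 3.58 with replicate 1 left out and 1.03 with replicate 2 left out.

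*Sox10*, which drives the myelin genes with *Olig2* and *Myrf*, was at 15.8 and 6.23 in WT and 22.5 and 6.64 in Taf4a-/-, with overlap. Its log2 fold change of 0.28 (SE 0.74, adjusted p-value 0.797, limma) turned to -0.32 without WT replicate 2. *Myrf*, listed as *Gm98* and also made by several epithelia, was high in every library, at 6795 and 7147 against 7554 and 9254, and did not pass the test (0.26, adjusted p-value 0.206). Of the 17 factors tested 4 fell, or 23.5% beside the 17.3% of all genes, among them *Egr2*, the regulator of Schwann cell myelination (-1.77), *Sox5*, which restrains oligodendrocyte differentiation (-1.35), and *Zeb2* (-0.73). *Egr2* lost its call without WT replicate 1, WT replicate 2 or Taf4a-/- replicate 2 (adjusted p-values of 0.0677, 0.0957 and 0.106, limma), and *Zeb2* without Taf4a-/- replicate 1 (0.0938).

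Of the compact myelin proteins 4 of 7 tested fell, or 57.1% beside the 17.3% of all genes tested, with a list median of -1.27. *Mal*, a tetraspan proteolipid also found in epithelia, had 205 and 176 normalized counts in WT and 14.7 and 11.1 in Taf4a-/- (log2 fold change -3.79, adjusted p-value 0.00165, limma), and *Pllp* (-2.57), the tight junction gene *Cldn11* (-2.25) and the tetraspanin gene *Cd9* (-1.27) fell as well. The call of *Cldn11* was lost without WT replicate 1 or Taf4a-/- replicate 1 (adjusted p-values of 0.0798 and 0.0821, limma).

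The relatives of *Pmp22* fell where *Pmp22* did not pass. All 3 tested, *Emp1*, *Emp3* and *Emp2*, were called, where 17.3% of all genes tested were called lower. Their log2 fold changes were -3.83, -3.14 and -1.77. *Emp1*, an epithelial membrane protein gene, went from 2523 and 4877 to 276 and 218. The difference between these changes and that of *Pmp22* was not tested.

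Among proteins of oligodendrocyte differentiation 3 of 12 tested fell, or 25.0% beside the 17.3% of all genes, with a median of -0.54. *Trf*, the gene of transferrin, which liver and yolk sac cells also make, had 533 and 255.6 in WT and 6.85 and 5.53 in Taf4a-/- (log2 fold change -5.69, adjusted p-value 0.00125, limma), and the connexin gene *Gjb1* (-2.20) and *Tmem125* (-1.96) were called as well. In 3 genes of this list both Taf4a-/- libraries were above WT, and the main test called none of them. *Carns1*, the carnosine synthase gene, had 42.1 and 52.0 in WT and 74.4 and 97.3 in Taf4a-/- (0.85, adjusted p-value 0.0914), and *Bcas1*, a gene of early myelinating oligodendrocytes, had 6.14 and 14.5 against 42.1 and 16.6 (1.39, 0.154). *Hapln2*, a link protein gene of the node of Ranvier, was 0 in both WT libraries and 3.92 and 5.53 in Taf4a-/-, under the filter, with an adjusted p-value of 0.0297 in the fit without it. *Opalin*, a membrane protein gene of oligodendrocytes, was 0 in 3 libraries and 1.11 in Taf4a-/- replicate 2. These 4 genes were named after their values were seen.

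Of the genes for myelin lipids 6 of 11 tested fell, or 54.5% beside the 17.3% of all genes tested, with a median of -0.48. The larger changes were in *Gal3st1*, the sulfotransferase that makes sulfatide (-1.35), *Elovl1*, an elongase of very long fatty acids (-1.03), the sulfatase gene *Arsa* (-0.69) and *Fdft1*, the squalene synthase gene of the cholesterol pathway (-0.52). *Elovl1* kept its call as each library was left out, and the other 3 each lost theirs in 3 of 4 such fits, without WT replicate 2, Taf4a-/- replicate 2 and either Taf4a-/- replicate 1 (*Arsa*, *Fdft1*) or WT replicate 1 (*Gal3st1*), at adjusted p-values of 0.0601 to 0.216. Among oligodendrocyte precursor genes 3 of 7 tested fell, or 42.9% beside the same 17.3%. They were the proteoglycan gene *Cspg4* (-3.27), *Matn4* (-2.03) and *Vcan* (-0.72). None of these 3 calls held in every fit that left out a library. *Cspg4* was lost without WT replicate 2 (0.0667), *Matn4* without WT replicate 1, WT replicate 2 or Taf4a-/- replicate 1 (0.0571, 0.128 and 0.0820), and *Vcan* without Taf4a-/- replicate 1 or 2 (0.155 and 0.0960, limma). Of the axonal and nodal partners of myelin 7 of 16 tested fell, or 43.75% beside the same 17.3%, with a median of -1.12. The axonal adhesion genes *Cntn2* (-2.32) and *Cntn1* (-2.17) led, followed by *Adam22* (-1.50) and *Ncam1* (-1.39). Without WT replicate 2 the calls of *Cntn1* (adjusted p-value 0.0713), *Adam22* (0.0630, with a log2 fold change of -0.93) and *Ncam1* (0.0582) were lost, and that of *Cntn1* also without Taf4a-/- replicate 1 (0.0511). *Vcan*, *Cspg4* and *Ncam1* are also made by mesenchymal cells or heart muscle, and 4 fibroblast markers summed to 222164 and 335521 in WT against 19130 and 26699 in Taf4a-/-. Their part in these falls was not tested.

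**Figure D4:**
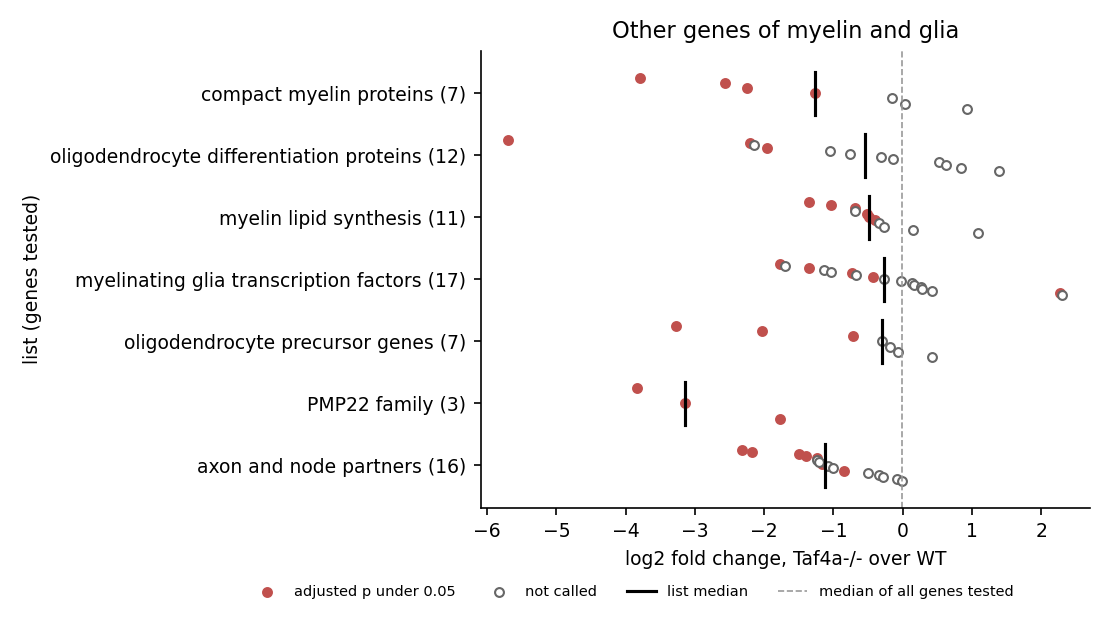
Log2 fold change (Taf4a-/- over WT) of each tested gene in the lists with at least 3 tested genes, 1 row per list with the number of genes tested, filled red where the adjusted p-value was under 0.05 and open where it was not, with a black line at the list median and a dashed line at the median of all genes tested. The red points lie to the left of 0 in every list that has them except the transcription factors, where *Olig2* stands at 2.28.

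The markers of oligodendrocytes did not move together either. Of 12 markers 11 were in the table and 8 were tested. The median log2 fold change of the 8 was 0.60, beside -0.01 for all genes tested. Both Taf4a-/- libraries were above WT for 6 of the 11, below for 3, and overlapped for 2. Over all genes, 30.0% were above and 29.6% below. The list includes *Mobp*, which was chosen for its rise. *Mobp* and *Olig2* were higher, *Mbp* and *Cldn11* lower, and the other 4 did not pass, where 11.3% of all genes tested were called higher and 17.3% lower. Their summed count was 7855 and 8146 in WT and 8702 and 10093 in Taf4a-/-, most of it *Myrf*. The 7 Schwann cell markers summed to 672 and 485 against 498 and 606, and of the 3 tested *Egr2* was lower. Summed astrocyte markers were 1262 and 1272 against 940 and 975, and neuron markers 892 and 808 against 896 and 1115. In Taf4a-/-, *Mobp* stood at 118 and 103 where *Opalin* was at 0 and 1.11 and *Mag* at 0.979 and 1.11.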

How the data were processed

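Polyadenylated RNA of 4 libraries, 2 labelled WT and 2 labelled Taf4a-/-, was sequenced after cardiac differentiation of ESC lines. Per the labels and the methods, the authors mapped the reads to mm9 with TopHat (1.3.3 in the submitters' processing notes, which also list CASAVA 1.8, HTSeq 0.5.3p1 and DESeq), and the deposited values are counts per gene divided by 1 size factor per library. Whole reads were recovered by dividing by the smallest positive value (100% within 0.01). Reads were not marked by molecule, so intervals cover counting error only.

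Genes with a mean of at least 10 (16926 of 24637) were fitted with limma 3.58.1 in R 4.3.3 (variance trend) on log2(normalized count + 1) with 4.17 prior degrees of freedom. A gene was called where its p-value, adjusted after Benjamini and Hochberg, was under 0.05. The paper describes its RNA-seq samples as biological replicates of independent WT and Taf4a-/- lines. The labels do not say which line or culture each library came from, so p-values measure the spread between these libraries. The ratios of *Mog* and *Mag* were given with exact binomial intervals of the summed reads. Gene positions came from the NCBIM37 annotation, and promoters from RefSeq windows of GRCm38.p6. The script was tested on simulated data. Figures were drawn with matplotlib 3.10.9.

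The members and lists were chosen with earlier results of these data known. Named were the members, *Taf4a*, *Xist*, *Olig1*, *Olig2*, *Sox10* and *Myrf* whatever their values, up to 4 called genes per list by size of change, the 5 genes nearest to *Mobp* in pattern and 2 annotated genes on each side of it. Some other genes of the lists are not reported here by name. *Opalin*, *Carns1*, *Bcas1*, *Hapln2*, *Dnajc7*, *Rpsa*, *Slc25a38*, *Cx3cr1* and *Xirp1* were named after their values were seen. Alternatives changed the pseudocount, filter, scaling, variance model and libraries.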

Additional observations from a re-analysis of the deposited data

How the results depend on the processing

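*Gpm6b* stayed lower in the 13 alternatives run, at log2 fold changes of -2.27 to -1.79, and *Pmp22* and *Cnp* passed the test in none. *Mobp* stayed higher, at 3.29 to 5.30. For *Mobp* this is a description, since it was chosen for its rise in these same libraries and passed the filter only through Taf4a-/-. *Cnp* turned to 0.0813 with quantile normalization and ran from -0.47 to 0.31 as each library was left out, and *Sox10* from -0.32 to 1.09 in 3 such fits. Without Taf4a-/- replicate 1 it was under the filter and gave no value. The causes were not tested. Without the filter 2 members were called higher, since *Mog* entered the test, and 2 of the other myelin and glial genes. Without the variance trend 1 member was lower, 19 of the other myelin genes were lower and 0 higher (3 at an unadjusted p under 0.05, limma), and over all genes 856 were higher and 1741 lower. With quantile normalization 4 of the other myelin genes were higher, and over all genes 2624 were higher and 2460 lower (51.6% of calls higher, against 39.4% of 1906 and 2928). Leaving out 1 library at a time, where the lone library is assumed to vary like the others, gave 1 to 2 members lower, 17 to 25 other myelin genes lower (17 without WT replicate 2) and 0 to 5 higher (0 without WT replicate 2 or Taf4a-/- replicate 1, where 3 and 2 were higher at an unadjusted p under 0.05, limma, and 5 without WT replicate 1), and over all genes 600 to 2558 higher and 1453 to 3106 lower. Many of the called genes named beside the members lost their call in at least 1 of these fits, as given above. The calls of *Xist*, *Dnajc7*, *Cx3cr1* and *Xirp1* were not followed in them. With the replicate number as a block, 1 member was higher and 2 lower, and 2 other myelin genes were higher and 27 lower. No text pairs the libraries, and deviations of libraries with the same number had a correlation of 0.0118 over 16926 genes. Voom on the recovered reads called 1 member higher and 2 lower, and 1 and 30 of the other myelin genes. The planned edgeR and DESeq2 fits were not run. Depth limits *Mobp*, *Mog* and *Mag*, where WT had at most 4 reads a library.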
